A study of Mus musculus with 18 samples.

Results

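The neuropeptide genes described here are 9 genes that encode precursors of small signalling peptides in neurons: Cck, Nts, Vip, Tac1, Penk, Pdyn, Npy, Sst and Gal. They were chosen by name, and their values were read from every probe set to which the platform annotation gives the gene's symbol alone. This rule gave 10 of 45101 probe sets, 2 for Tac1 and 1 for each of the others, or 9 of the 18193 genes with such a probe set.

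The study compared how dopamine neurons of the substantia nigra (SN) and of the ventral tegmental area (VTA) respond to MPTP, a compound whose metabolite enters dopamine neurons through the dopamine transporter and poisons them. All mice were adult C57Bl/6 animals that carried the hTH-GFP transgene, a human tyrosine hydroxylase (TH) promoter joined to green fluorescent protein, and all lived in single housing for 9 weeks. There were 6 groups of 3 arrays, SN and VTA neurons each from mice given saline for 10 days (called untreated in some labels), MPTP at 4 mg/kg for 2 days, or MPTP at 4 mg/kg for 10 days, with the brains taken 7 days after the last injection. Neurons labelled as dopamine neurons were laser captured, and their amplified RNA was hybridised to Affymetrix mouse arrays. The replicates are labelled as biological, but no label says whether SN and VTA arrays came from the same mice or how many mice went into an array, so p-values measure the spread between these arrays.

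Neuropeptides are cut from larger precursors inside dense core vesicles, are released on strong or repeated firing, and act on G protein-coupled receptors at some distance from the release site. Many midbrain dopamine neurons make cholecystokinin, from Cck, or neurotensin, from Nts, beside dopamine, and a small group in the ventral midbrain and dorsal raphe makes vasoactive intestinal peptide, from Vip. The other genes are known mostly from neighbouring or afferent neurons: Tac1 encodes substance P and neurokinin A, Penk the enkephalins, Pdyn the dynorphins, Npy neuropeptide Y, Sst somatostatin and Gal galanin.

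Transcription of several of these precursor genes is known to follow neuronal activity through the cyclic AMP response element, so the promoter stretches were searched for its core, TGACG, on both strands (CGTCA on the other strand), and for the full palindrome TGACGTCA, which holds overlapping cores on the 2 strands. RefSeq promoter windows (build GRCm38.p6) matched 8 of the 9 genes, all but Penk, and Pdyn had 2 entries. In the 150 bases before the start site, 4 genes held the core and Sst alone the palindrome. The core was present in 13.3% and the palindrome in 1.36% of 32851 promoter windows of that length. The 4 stretches with the core are shown 5′ to 3′ on the gene's strand, with the core in capitals, because they are the shared promoter letters found among these genes. Cck lies at chr9:121495695-121495844 (minus strand), Vip at chr10:5639068-5639217 (plus strand), Tac1 at chr6:7554911-7555060 (plus strand) and Sst at chr16:23890845-23890994 (minus strand).
Cck: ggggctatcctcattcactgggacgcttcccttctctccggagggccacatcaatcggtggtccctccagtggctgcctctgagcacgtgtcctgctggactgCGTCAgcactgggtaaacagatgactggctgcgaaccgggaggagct
Vip: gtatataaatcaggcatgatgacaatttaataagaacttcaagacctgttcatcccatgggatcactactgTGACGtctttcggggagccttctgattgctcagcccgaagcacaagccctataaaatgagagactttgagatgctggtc
Tac1: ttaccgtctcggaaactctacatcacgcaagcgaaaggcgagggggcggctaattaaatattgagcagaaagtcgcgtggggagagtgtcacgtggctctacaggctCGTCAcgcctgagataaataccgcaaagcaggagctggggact
Sst: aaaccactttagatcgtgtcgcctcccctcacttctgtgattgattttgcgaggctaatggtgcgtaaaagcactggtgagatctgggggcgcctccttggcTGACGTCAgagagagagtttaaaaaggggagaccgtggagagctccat
The core begins at position -47 in Cck, -79 in Vip and -43 in Tac1, counted from the start site, and the cores of Sst begin at -48 and -45. A match of letters is a description and not a binding site, and the arrays hold no measure of binding.

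Each deposited value is a log2 signal relative to the median of its own probe set over the 18 arrays, so 0 is the middle array, a difference of 1 is a 2-fold change, and levels cannot be compared between genes. The median absolute deviation of an array's values was 0.235 on SN saline array 1 and 0.269 on VTA 2-day array 1, against 0.123 to 0.204 on the other arrays. The label of dopamine neurons was set against 10 marker genes, all measured, whose mean per array ran from 0.3 to 0.92 on SN saline arrays, from -0.5 to -0.072 after 2 days and from -0.17 to 0.32 after 10 days. In VTA the same mean ran from -0.62 to 0.6, from -0.78 to 0.16 and from -0.47 to 0.48. Centred values cannot show whether a marker was present or absent. In RNA from many cells, fewer dopamine neurons and less marker RNA per neuron cannot be told apart.

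None of the 9 neuropeptide genes passed in any comparison, which with 3 arrays in a group does not show that they were unchanged. After 2 days in SN the limma confidence interval ran from -0.056 to 1.98 for Penk and from -0.815 to 2.65 for Nts. It was narrower for Cck, from -0.328 to 0.76. In limma, 0 of 9 passed an adjusted p of 0.05 between regions, for either duration of MPTP in either region, for the VTA response minus the SN response, or for any difference among the 6 groups, and 0 of 9 reached an unadjusted p of 0.05 in these tests. The background was as sparse: the percentage of all 18193 genes that passed was 0 between regions, 0 after 2 days and 0.0055 after 10 days in SN, 0.011 after 2 days and 0.011 after 10 days in VTA, 0 for both differences of responses, and 0.0385 among the 6 groups. Unadjusted p-values under 0.05 were given by 764 genes between regions, by 1210 and 1013 genes after 2 and 10 days in SN, and by 1467 and 985 genes in VTA. The counts were 601 and 576 genes for the differences of responses at 2 and 10 days, and 1115 among the 6 groups. The other test, exact permutation of arrays, cannot go below 0.1 (two-sided) with 3 arrays against 3.

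**Figure D1:**
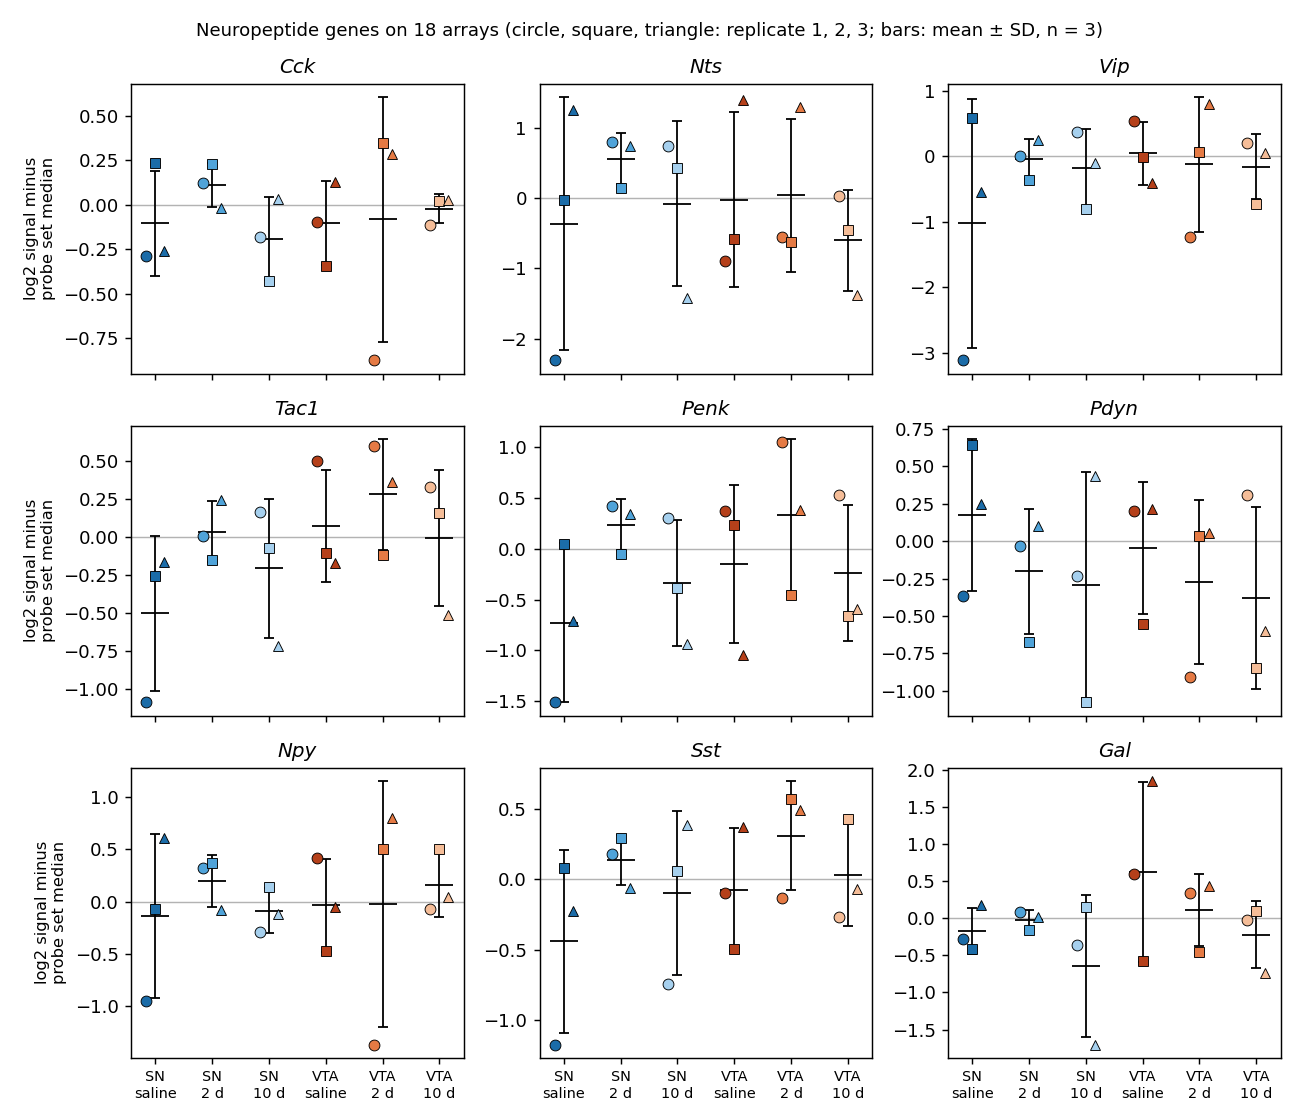
Centred log2 signals (y axis, log2 units relative to the probe set's median) of the 9 neuropeptide genes on 18 arrays, by region and treatment (x axis). Symbols are arrays and bars are the group mean ± SD (n = 3). Nts and Vip spread over more than 3 log2 units, down to -2.30 and -3.12 on SN saline array 1, while Cck stays between -0.88 and 0.35.

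Most of these genes spread widely over the arrays. Nts, with an SD of 1.04 over the 18 arrays, was more variable than 99.8% of the genes tested, and Vip, with an SD of 0.89, was more variable than 99.5%. Gal (0.71), Penk (0.67), Npy (0.55), Pdyn (0.51) and Sst (0.45) lay between the percentiles 90.3 and 98.4, and Tac1 (0.42) lay at the percentile 88. The Tac1 value is that of an average, and its probe sets alone had SDs of 0.85 (1416783_at) and 0.19 (1431883_at). Genes with 1 probe set and averages of several are ranked together here. Cck was the steadiest, with an SD of 0.30 at the percentile 69.2.

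The lowest values of 7 of the 9 genes fell on 2 arrays. All 9 genes were below 0 on SN saline array 1, where their mean was -1.23, and Nts, Vip, Tac1, Penk and Sst had their lowest value there. VTA 2-day array 1 held the lowest values of Cck and Npy and the highest values of Tac1 and Penk. The same 2 arrays had the widest spread over all probe sets.

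Tac1, the precursor of substance P, read -1.09, -0.26 and -0.17 on the SN saline arrays, 0.0054, -0.15 and 0.24 after 2 days of MPTP, and 0.16, -0.072 and -0.72 after 10 days. All 3 arrays of the 2-day group lay above the saline arrays, with a gap of 0.01 between the nearest values, and the 10-day arrays overlapped both groups. In VTA it read 0.50, -0.11 and -0.17 with saline, 0.60, -0.12 and 0.36 after 2 days, and 0.33, 0.16 and -0.51 after 10 days. The VTA groups overlapped throughout.

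The lowest group mean of Tac1 was that of SN saline, -0.50 ± 0.51 (SD, n = 3), followed by SN at 10 days, -0.21 ± 0.46, VTA at 10 days, -0.0082 ± 0.44, SN at 2 days, 0.032 ± 0.20, VTA saline, 0.071 ± 0.37, and VTA at 2 days, 0.28 ± 0.36. No neighbours in this order differed by more than their spread. In SN the 2-day arrays exceeded saline by 0.54 ± 0.30 (SE; 95% interval -0.097 to 1.17; limma adjusted p = 0.79; exact permutation p = 0.1, the smallest possible), and by 0.24 without SN saline array 1. Tac1, as the average of its 2 probe sets, was the 1 gene of the 9 whose arrays did not overlap. Of all genes 5.96% were higher without overlap in this comparison. The VTA arrays exceeded the SN arrays by 0.34 ± 0.17 (95% interval -0.025 to 0.71; limma adjusted p = 0.97; exact permutation p = 0.087 over 48620 splits), which also did not pass.

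The 2 Tac1 probe sets did not move together. Probe set 1416783_at read -2.28, -0.40 and -0.054 with saline and -0.20, 0.054 and 0.59 after 2 days in SN, while 1431883_at stayed between -0.47 and 0.21 on all 18 arrays. The saline and 2-day SN arrays overlapped for each probe set alone (exact permutation p = 0.2 for 1416783_at and 0.9 for 1431883_at), so only their average lay apart. The 2-day difference in SN was 1.05 ± 0.62 (SE) for 1416783_at and 0.020 ± 0.17 for 1431883_at, and over the 18 arrays their correlation was -0.14. The difference between regions was 0.49 ± 0.36 and 0.20 ± 0.097 respectively, and the second of these had an exact permutation p of 0.022 with a limma adjusted p of 0.98. The Tac1 values above are means of both probe sets.

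Penk, the precursor of the enkephalins, read -1.51, 0.048 and -0.71 on the SN saline arrays, 0.42, -0.048 and 0.34 after 2 days and 0.30, -0.38 and -0.94 after 10 days. In VTA it read 0.37, 0.23 and -1.05 with saline, 1.05, -0.45 and 0.38 after 2 days, and 0.53, -0.66 and -0.59 after 10 days. The groups overlapped in both regions, with 1 saline array of SN between the 2-day arrays. Its group means, all overlapping within their SD, ran in order from SN saline (-0.73 ± 0.78) through SN at 10 days (-0.34 ± 0.62), VTA at 10 days (-0.24 ± 0.67), VTA saline (-0.15 ± 0.78) and SN at 2 days (0.24 ± 0.25) to VTA at 2 days (0.33 ± 0.75). The difference after 2 days in SN was 0.96 ± 0.48 (SE; 95% interval -0.056 to 1.98; limma adjusted p = 0.76; exact permutation p = 0.2), the smallest adjusted p of the 9 genes in that comparison, and it was 0.57 without SN saline array 1.

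Pdyn, the precursor of the dynorphins that act on the kappa opioid receptor, was the 1 gene of the 9 with a negative difference after 2 days in SN, -0.38 ± 0.40 (SE). Its SN saline arrays read -0.37, 0.64 and 0.25 against -0.034, -0.68 and 0.10 after 2 days and -0.23, -1.08 and 0.43 after 10 days. The groups overlapped, and the differences of -0.38 and, after 10 days, -0.47 ± 0.40 became -0.65 and -0.74 without SN saline array 1. Group means ran from -0.38 ± 0.61 (SD) in VTA at 10 days to 0.17 ± 0.51 in SN saline, within the SDs.

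Among peptides made by dopamine neurons themselves, Cck had the narrowest range, from -0.88 on VTA 2-day array 1 to 0.35 on VTA 2-day array 2. Its group means lay between -0.19 ± 0.23 (SD, n = 3) in SN at 10 days and 0.11 ± 0.13 in SN at 2 days. The VTA and SN arrays differed by -0.0077 ± 0.15 (SE; 95% interval -0.32 to 0.31), so a regional difference of more than 0.32 in either direction lies outside this interval. The difference after 2 days in SN was 0.22 ± 0.26, and the other MPTP differences lay between -0.087 and 0.081.

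Nts showed the reverse picture, with large values on single arrays of most groups. On SN saline arrays it read -2.30, -0.031 and 1.25, against 0.80, 0.14 and 0.73 after 2 days and 0.74, 0.43 and -1.42 after 10 days. In VTA it read -0.89, -0.58 and 1.40 with saline, -0.55, -0.62 and 1.29 after 2 days and 0.031, -0.45 and -1.38 after 10 days. The saline arrays of SN alone spanned nearly the whole range of the 18 arrays, and every treated SN array lay inside it. The 2-day difference in SN of 0.92 ± 0.82 (SE) turned to -0.052 without SN saline array 1, and the VTA to SN difference of -0.23 ± 0.47 (95% interval -1.23 to 0.77) became -0.56.

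Vip also rested on SN saline array 1. On the SN saline arrays it read -3.12, 0.59 and -0.54, against 0.0022, -0.35 and 0.25 after 2 days and 0.38, -0.80 and -0.094 after 10 days. The second saline array was the highest and the first the lowest of the 9 SN arrays. The differences of 0.99 ± 0.69 (SE) after 2 days and 0.85 ± 0.69 after 10 days turned to -0.058 and -0.20 without that array, and the VTA to SN difference of 0.33 ± 0.40 turned to -0.017. In VTA the gene read 0.55, -0.0022 and -0.41 with saline and -1.24, 0.066 and 0.81 after 2 days, and the difference was -0.17 ± 0.69, or 0.39 without VTA 2-day array 1.

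The 3 remaining genes mark mostly other neurons. Npy group means ran from -0.14 ± 0.78 (SD) in SN saline to 0.20 ± 0.25 in SN at 2 days, and none of its differences exceeded its SE. Sst, which marks inhibitory neurons in many brain regions, ran from -0.44 ± 0.65 in SN saline to 0.31 ± 0.39 in VTA at 2 days. Its 2-day differences were 0.58 ± 0.34 (SE) in SN and 0.38 ± 0.34 in VTA, both with overlapping arrays, and the SN value was 0.21 without SN saline array 1. After 10 days the Sst difference in SN was 0.34 ± 0.34 and turned to -0.022 without that array.

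Gal, a peptide of locus coeruleus and hypothalamic neurons, read 0.59, -0.58 and 1.85 on the VTA saline arrays, 0.34, -0.45 and 0.43 after 2 days, and -0.017, 0.094 and -0.74 after 10 days. VTA saline array 3 held the highest value of all 18 arrays, and the groups overlapped. On the SN arrays it read -0.27, -0.42 and 0.18 with saline, 0.089, -0.15 and 0.017 after 2 days and -0.36, 0.15 and -1.70 after 10 days. The 10-day difference in VTA was -0.84 ± 0.50 (SE; 95% interval -1.91 to 0.22; limma adjusted p = 0.93; exact permutation p = 0.4), and it was -0.23 without VTA saline array 3. Its VTA to SN difference, 0.45 ± 0.29 (95% interval -0.17 to 1.06), did not pass, and it was 0.24 without VTA saline array 3.

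Read as a set, 8 of the 9 genes had a positive difference after 2 days in SN, with a median of 0.54 against -0.027 over all genes. Without SN saline array 1 there were 5 of 9, with a median of 0.10, and Nts, Vip and Npy turned negative. After 10 days in SN 6 were positive with a median of 0.28 against -0.017, but 1 of 9, with a median of -0.20, without that array. In VTA 6 were positive after 2 days (median 0.022 against -0.0082) and 3 after 10 days (median -0.089 against -0.0047), and leaving out single arrays gave 3 to 8 and 1 to 6 positive. Both SN comparisons share the SN saline arrays, array 1 among them. The counts describe a set chosen by name with earlier results of these data known, and they carry no test.

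**Figure D2:**
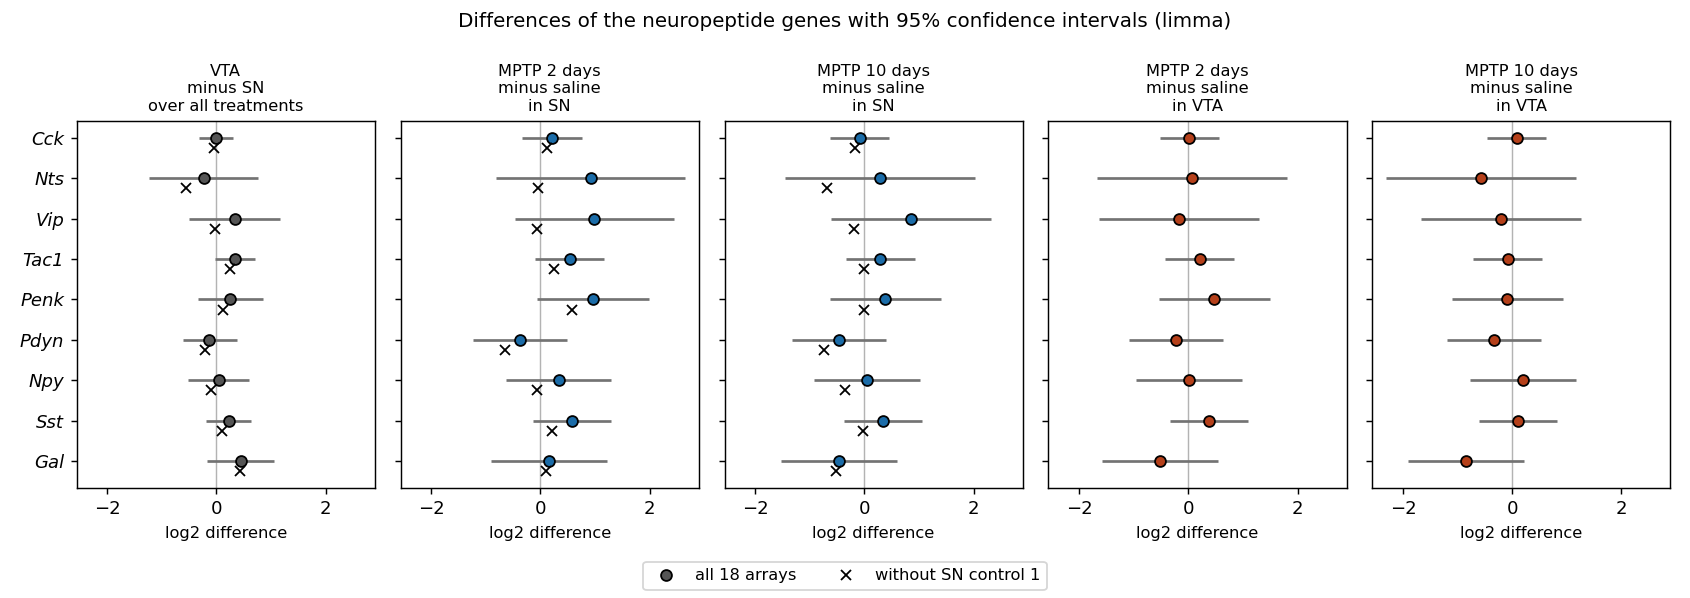
Differences of the 9 neuropeptide genes between regions and between MPTP and saline in SN and VTA (x axis, log2 units), with 95% confidence intervals from limma (circles, all 18 arrays) and values without SN saline array 1 (crosses; that array is labelled SN control 1). Every interval includes 0, and the crosses of Nts and Vip lie near 0 after 2 days in SN (-0.052 and -0.058).

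No other comparison of MPTP with saline gave a neuropeptide gene whose arrays lay apart. None of the 9 was lower without overlap after 2 days in SN, against 8.56% of all genes. After 10 days in SN the background was 5% higher and 6.27% lower, and in VTA it was 5.1% higher and 4.92% lower after 2 days and 4.77% higher and 4.53% lower after 10 days, with 0 of the 9 genes in each. Over the regions within a treatment, 8 of the 9 genes were higher in VTA than in SN with saline, 4 of 9 after 2 days and 7 of 9 after 10 days. Among all genes 50%, 53.7% and 51.1% were higher in the same order. Without SN saline array 1 the count with saline was 5 of 9. Leaving out single arrays gave counts from 3 to 7 after 2 days and from 5 to 7 after 10 days. With saline Vip differed by 1.07 ± 0.69 (SE), or 0.020 without SN saline array 1, and Gal by 0.79 ± 0.50, or 0.18 without VTA saline array 3.

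The responses of the 2 regions to MPTP were not shown to differ for any of the 9 genes. The VTA response minus the SN response at 2 days was negative for 8 of the 9 (median -0.33 against 0.016 over all genes). Without SN saline array 1 it was negative for 5 of 9 (median -0.0355). At 10 days 6 of 9 were negative (median -0.37 against 0.011 over all genes), but 4 of 9 without that array (median 0.11). Vip had a value of -1.16 ± 0.97 (SE; limma adjusted p = 1) at 2 days and -1.05 ± 0.97 at 10 days, which became -0.11 and -0.0025 without SN saline array 1.

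The marker genes of several cell types moved beside these values. After 2 days in SN, 10 of 10 dopamine neuron markers were lower than with saline (median -0.93) and both glutamate neuron markers, the vesicular transporters Slc17a6 and Slc17a7, were higher (median 0.79), while 6 of 8 astrocyte markers were higher (median 0.29) and 5 of 6 measured GABA neuron markers lower (median -0.25). Of the 7 measured oligodendrocyte markers 6 were lower (median -0.21). Lower values were also given by 2 of 2 measured serotonin neuron, 2 of 3 cholinergic neuron and 4 of 6 endothelium markers. Of the microglia markers 4 of 7 were higher, as were 4 of 7 ependyma and choroid plexus markers. Among all genes 44.7% were higher in this comparison. None of these markers passed in limma. An unadjusted p under 0.05 was given by 7 of 10 dopamine, 1 of 2 glutamate, 3 of 8 astrocyte, 2 of 6 GABA and 0 of 7 oligodendrocyte markers. No marker of the serotonin, cholinergic, microglia, endothelium or ependyma lists reached it, and 1210 of all 18193 genes did. The mean of the glutamate markers ran from -1.4 to 0.11 on the SN saline arrays and from -0.056 to 0.34 after 2 days. For GABA neurons the mean of the 6 measured of 7 markers ran from 0.24 to 0.30 with saline and from -0.26 to 0.12 after 2 days, and for astrocytes, with 8 of 8 measured, from -0.13 to -0.090 and from -0.014 to 0.26. After 2 days in VTA the astrocyte markers went the other way, with 7 of 8 lower (median -0.16), where 48.4% of all genes were higher. The part of these markers in the differences of the neuropeptide genes was not tested.

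The clearest structure among the neuropeptide genes was between arrays and not between groups. The correlation tests shuffled all 18 arrays freely, without regard to group or replicate number. Same-numbered arrays were alike more often than others, so the permutation p-values of the correlations may be too small. Of 36 pairs, Tac1 and Penk alone passed by both Pearson and Spearman correlation over the 18 arrays. Pearson's r was 0.83 (permutation p = 2e-05, adjusted p = 0.00072 over 36 pairs) and Spearman's rho was 0.83 (permutation p = 5e-05, adjusted p = 0.0018). Arrays low in one were low in the other, from SN saline array 1 (-1.09 and -1.51) up to VTA 2-day array 1 (0.60 and 1.05). These are the arrays farthest from the Tac1 median, and without them r was 0.69. The value was 0.79 for deviations from group means, 0.77 when the means of the replicate numbers were also removed, 0.90 over the 9 SN arrays and 0.77 over the 9 VTA arrays. With Tac1 probe set 1416783_at alone r was 0.80. The other Tac1 probe set, 1431883_at, was not tested alone against Penk, and the r between the 2 probe sets was -0.14. Over the 18 arrays 1416783_at had an SD of 0.85 and 1431883_at one of 0.19. The relation with Penk is thus shown for 1416783_at and for the average, and not for 1431883_at.

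Tac1, as the average of its 2 probe sets, and Penk ran against the dopamine neuron markers. The mean of the 10 markers had an r of -0.86 with Tac1 (permutation p = 1e-05, the smallest that 100000 permutations can give, adjusted p = 9e-04 over 90 relations of 9 genes with 10 marker lists; rho = -0.88, permutation p = 1e-05, adjusted p = 9e-04). Without the 2 arrays farthest from the marker median r was -0.78. It was -0.87 within SN, -0.93 within VTA and -0.89 for deviations from group means. Penk had an r of -0.80 with the same mean (permutation p = 8e-05, adjusted p = 0.0027; rho = -0.81, permutation p = 0.00012, adjusted p = 0.0054), which became -0.66 without those 2 arrays, when its adjusted p was 0.12. It was -0.84 within SN and -0.76 within VTA. With Tac1 probe set 1416783_at alone the marker mean had an r of -0.85, and 1431883_at alone was not tested. For Tac1 the relation is thus shown for 1416783_at and for the average, and not for 1431883_at. SN saline array 1 had the highest marker mean and VTA 2-day array 1 the lowest. On these arrays 1416783_at read -2.28 and 1.18, while 1431883_at read 0.094 and 0.0091.

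**Figure D3:**
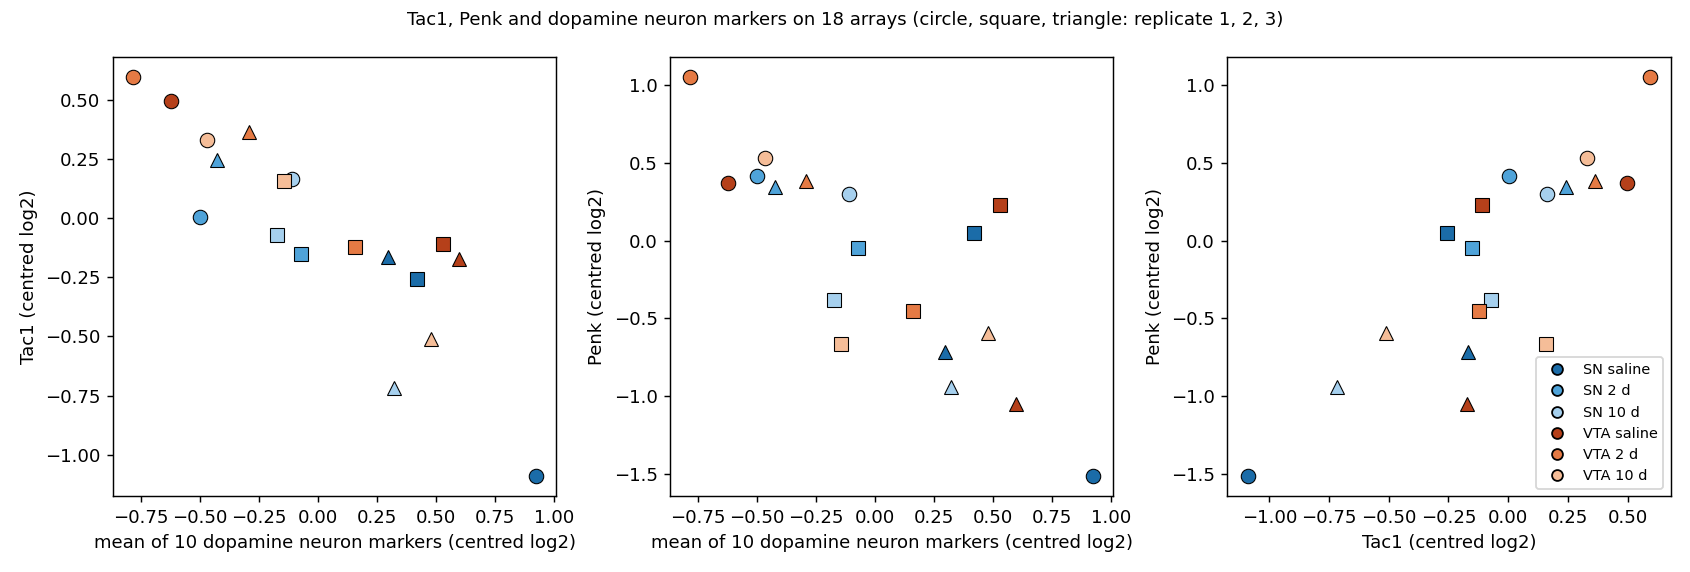
Tac1 (left) and Penk (middle) against the mean of 10 dopamine neuron markers, and Penk against Tac1 (right), all in centred log2 units, on 18 arrays (colour, region and treatment; shape, replicate). SN saline array 1 lies at the low end of Tac1 (-1.09) and Penk (-1.51) with the highest marker mean (0.92), VTA 2-day array 1 lies at the other end, and the other arrays lie between them.

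Tac1 was high on the arrays where the mean of the 2 glutamate neuron markers was high. Pearson's r was 0.81 (permutation p = 9e-05, adjusted p = 0.0027) and rho was 0.74 (permutation p = 7e-04, adjusted p = 0.021). Without the 2 arrays farthest from the marker median r was 0.61. It was 0.92 within SN, 0.81 within VTA and 0.85 for deviations from group means, and without both widely spread arrays it was 0.66 with an adjusted p of 0.12. Slc17a6, the vesicular glutamate transporter of subcortical neurons, alone had an r of 0.88 with probe set 1416783_at, given as a description because the pair was chosen after its values were seen. The other Tac1 probe set, 1431883_at, was not tested alone against these markers, so the relation is not shown for it. On SN saline arrays Slc17a6 read -2.09, -0.98 and 0.43, lowest on the array where Tac1 was lowest.

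The last relation that passed both ways joined Pdyn with the mean of 7 microglia markers. Pearson's r was 0.71 (permutation p = 0.0012, adjusted p = 0.026) and rho was 0.72 (permutation p = 0.0012, adjusted p = 0.027). It was 0.93 over the SN arrays but 0.51 over the VTA arrays, and 0.53 without the 2 arrays farthest from the marker median. Leaving out single arrays gave an r from 0.64 to 0.84 and kept the call in 14 of 18 cases, ending it without SN 10-day array 2 or 3, VTA 2-day array 1 or VTA 10-day array 2, and without both widely spread arrays the adjusted p was 0.12. The other 86 relations with marker lists did not pass by both coefficients.

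Cck and Npy passed by Pearson's r only, at 0.70 (permutation p = 0.0016, adjusted p = 0.028), with a rho of 0.50 (permutation p = 0.036, adjusted p = 0.16). Both genes were lowest on VTA 2-day array 1 (-0.88 and -1.37), and without that array r was 0.48 with an adjusted p of 0.17. Leaving out single arrays kept the call in 11 of 18 cases. It was also lost without SN saline array 1, SN 2-day array 2, SN 10-day array 1, VTA saline array 2, VTA 2-day array 2 or VTA 2-day array 3, where r lay between 0.67 and 0.70. It was 0.23 within SN and 0.91 within VTA, and 0.56 without the 2 arrays farthest from the Cck median. Cck and Sst passed by rank only, with a rho of 0.79 (permutation p = 0.00022, adjusted p = 0.0040) and an r of 0.57 (permutation p = 0.015, adjusted p = 0.11). Their r passed in 1 of 18 cases of a left out array, at 0.71 without VTA 2-day array 1 (adjusted p = 0.0086), and was lowest at 0.52 without VTA 2-day array 2 (adjusted p = 0.22). It was 0.83 without the 2 arrays farthest from the Cck median, 0.56 within SN and 0.69 within VTA. Of the 36 pairs 28 were positive, with a median r of 0.29. All 9 genes were below 0 on SN saline array 1, and this count was not repeated without it. Without both widely spread arrays the r of Vip with Npy turned from 0.55 to -0.072, while that of Cck with Sst rose from 0.57 to 0.71.

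**Figure D4:**
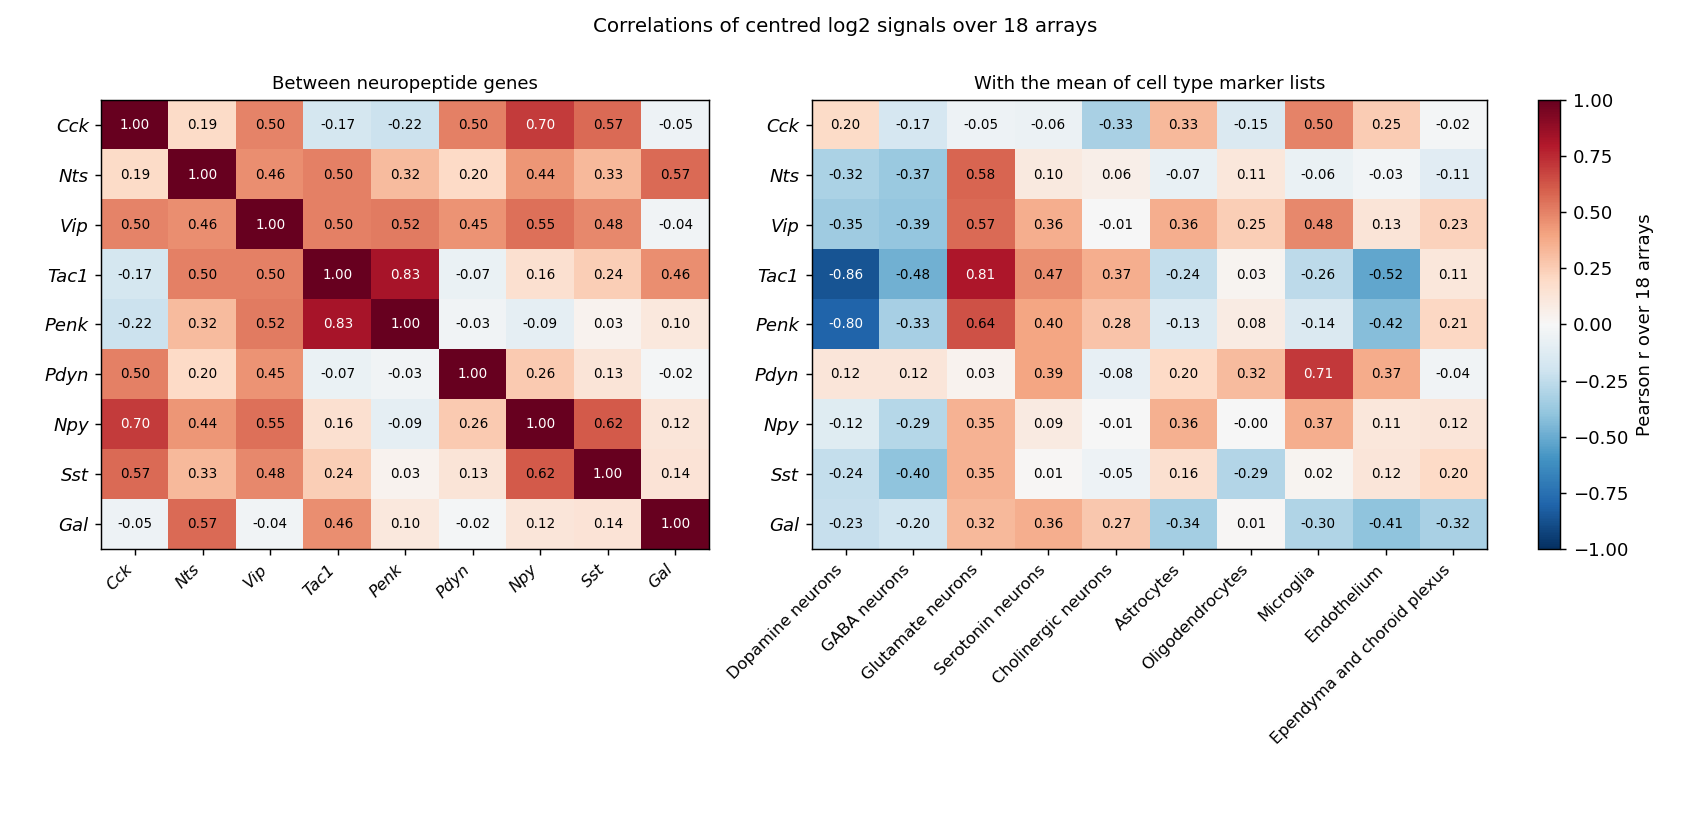
Pearson correlations (colour and printed value) over 18 arrays between the 9 neuropeptide genes (left) and between each gene and the mean of 10 lists of cell type markers (right). Tac1 and Penk form the pair with the highest value (0.83), and both have their most negative values with the dopamine neuron markers (-0.86 and -0.80).

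The genes whose values over the 18 arrays were most like each neuropeptide gene were ranked by Pearson's r among 16313 candidates, as a description with no test. Tac1 was most like Hspa14 (0.86), Pias2 (0.85) and Slc17a6 (0.84), and Penk most like Il33 (0.87), Zfand4 (0.86) and Styx (0.85). Vip was most like Mlip (0.90), the immediate early gene Egr1 (0.86) and Otud1 (0.84). Nts was most like Ctxn3 (0.84), Ppp1r17 (0.82) and Lipa (0.82), and Gal most like Ip6k3 (0.82), Fbxl17 (0.81) and Bdnf (0.80), a growth factor of neurons. Cck was most like Rspo3 (0.80), Emx2 (0.79) and Trappc1 (0.79), Pdyn most like Atf6 (0.79), Cd34 (0.78) and Sec61b (0.77), Npy most like Chdh (0.87), Srgap2 (0.86) and Arhgef3 (0.85), and Sst most like Unc5a (0.84), Polr1d (0.83) and Lrrc73 (0.83).

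The receptors that bind these peptides were followed as a list of 25 genes, of which 24 were measured. None passed in limma in any of the 7 comparisons. An unadjusted p under 0.05 was given by 6 after 2 days in SN, 2 after 10 days in SN, 6 after 2 days in VTA, 0 after 10 days in VTA and 2 between regions. Of all 18193 genes it was given by 1210, 1013, 1467, 985 and 764 in the same order. These all-gene counts are also the background of the 2 lists that follow. After 2 days in SN 17 of 24 were higher (median 0.15 against -0.027 over all genes). Oprk1, the kappa opioid receptor and so the receptor of the Pdyn peptides, read 1.18, 0.34 and 0.77 with saline and -0.47, -0.41 and -0.066 after 2 days in SN. Its arrays did not overlap, and the difference was -1.08 ± 0.28 (SE; limma adjusted p = 0.55), or -0.87 without SN saline array 1. After 10 days the 3 arrays lay at 0.066, 0.054 and 0.32, all below saline, with a difference of -0.61 ± 0.28 (limma adjusted p = 0.89).

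Ntsr1, the neurotensin receptor found on dopamine neurons, read 1.74, 0.76 and 0.43 with saline and -0.31, -0.12 and -0.62 after 2 days in SN, also without overlap, a difference of -1.33 ± 0.48 (SE; limma adjusted p = 0.65). In VTA its 2-day difference was -1.17 ± 0.48 with overlapping arrays (limma adjusted p = 0.57). The neuropeptide Y receptor Npy5r differed by -0.57 ± 0.17 after 2 days in SN (limma adjusted p = 0.63). In the other direction, the somatostatin receptor Sstr2 read -1.44, -0.22 and 0.056 with saline and 0.90, 0.34 and 0.39 after 2 days in SN, a difference of 1.08 ± 0.36 (limma adjusted p = 0.65) that was 0.62 without SN saline array 1. The galanin receptor Galr1 differed by 0.60 ± 0.28 (limma adjusted p = 0.74) in the same comparison.

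In VTA after 2 days, the receptors whose arrays lay apart with the smallest p each way were Tacr3, a tachykinin receptor, and Npy2r, a neuropeptide Y receptor. Tacr3 read 0.75, 1.34 and 1.29 with saline and 0.052, 0.23 and -0.78 after 2 days, a difference of -1.29 ± 0.36 (SE; limma adjusted p = 0.38). Npy2r read -0.86, -1.46 and -0.70 with saline and -0.21, 0.27 and 0.12 after 2 days, a difference of 1.07 ± 0.35 (limma adjusted p = 0.44). Tacr3 also had the smallest adjusted p of the receptors between regions, 1.09 ± 0.21 higher in VTA with a limma adjusted p of 0.61. After 10 days in VTA, Npy4r differed by 0.32 ± 0.16 and Sort1, which sorts neurotensin to lysosomes, by -0.19 ± 0.12, both without overlap and neither passing.

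A list of 34 other neuropeptide genes, 27 of them measured, gave no call either, with 1, 2, 0 and 1 genes at an unadjusted p under 0.05 after 2 and 10 days in SN and in VTA, and 1 between regions. Tac2, the precursor of neurokinin B, read -2.73, -0.96 and -0.34 with saline and 2.08, 0.65 and 0.37 after 2 days in SN. All 2-day arrays lay above saline, and the difference of 2.38 ± 0.54 (SE; limma adjusted p = 0.33) was 1.68 without SN saline array 1. After 10 days it was 1.43 ± 0.54 (limma adjusted p = 0.88), or 0.74 without that array. Cort, the precursor of cortistatin, differed by 0.48 after 2 days in SN, Calcb, a calcitonin gene-related peptide precursor, by 1.35 ± 0.55 after 10 days in SN, and Apln, the precursor of apelin, by 0.27 after 10 days in VTA, without overlap and without passing. The list's median was 0.046 after 2 days in SN and 0.044 after 10 days.

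Genes that cut, modify and pack peptide precursors, 17 of 18 measured, gave no call, with 2, 1, 0 and 0 genes at an unadjusted p under 0.05 after 2 and 10 days in SN and in VTA, and 1 between regions. Pcsk1, the prohormone convertase that makes the first cuts in many precursors, read 0.35, 0.12 and 0.50 with saline, -0.42, -0.019 and -0.28 after 2 days and -0.34, -0.041 and 0.019 after 10 days in SN. Both treated groups lay below saline without overlap, by -0.56 ± 0.20 (SE; limma adjusted p = 0.65) and -0.45 ± 0.20 (limma adjusted p = 0.89). Cadps2, which primes dense core vesicles for release, differed by -0.75 ± 0.29 after 2 days in SN (limma adjusted p = 0.68), and Chga, a vesicle core protein, by -0.40 after 10 days. In VTA, Scg5 differed by 0.25 and Scg2 by -0.26 after 2 days, and Scg5 by -0.19 and Ptprn2 by 0.28 ± 0.14 after 10 days, without overlap and without passing. The list's median was -0.12 after 2 days in SN against -0.027 over all genes.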

How the data were processed

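Laser-captured SN and VTA neurons of mice were profiled on Affymetrix arrays, with the group and replicate number of each array read from its title. RNA was extracted, amplified and biotin labelled per the labels' protocols. The deposited log2 values of 45101 probe sets were log2 transformed and RMA normalised by the authors with Agilent GeneSpring GX 10.0, per the series' design text. Every probe set's median over 18 arrays is 0 within 5e-07, a centring that no source states, so no level, detection call or filter on dim probe sets was available. Values ran from -5.02 to 6.72, array medians from -0.0078 to 0.016, with 0 missing values and 0 identical arrays. The number of arrays limits the precision.

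The platform annotation, which can be old, named a single gene for 34945 probe sets, more than 1 gene for 932 and no gene for 9211. Probe sets of a gene were averaged, giving 18193 genes. limma 3.58.1 (R 4.3.3) was used to test differences in 1 model of 6 group means with 12 residual and 4.06 prior degrees of freedom, two-sided, with Benjamini-Hochberg adjustment over all genes within a comparison. The script was tested on simulated data. Single genes were also tested by exact permutation of arrays (20 splits for 3 against 3). Correlations used 100000 permutations in Python 3.11.15 with numpy 2.4.6 and pandas 2.3.3, two-sided, adjusted over 36 pairs or 90 relations. These permutations kept neither the groups nor the replicate numbers together. Figures used matplotlib 3.10.9.

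The 9 genes, the lists and the marker genes were chosen with earlier results of these data known. All 9 genes are named. From each other list the rule names genes past the threshold and, per comparison, up to 2 each way of smallest p whose arrays do not overlap, with receptors always eligible, and for each neuropeptide gene the 3 most alike genes. Alternatives were probe sets tested singly, only the groups compared, array medians set to 0, repeated quantile normalisation, array weights, leaving out the 2 arrays of widest spread or each array in turn, regions within a treatment, and the replicate number as a block. The alternatives for correlations, and the counts and medians over the 9 genes with each array left out, were added after seeing the data.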

Additional observations from a re-analysis of the deposited data

Results flagged for a closer look

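No Gal difference passed, but after 2 days of MPTP its arrays lay on opposite sides of the saline mean in the 2 regions. They overlapped the saline arrays in both regions. All 3 SN arrays at 2 days lay above the SN saline mean of -0.17, at 0.089, -0.15 and 0.017, and all 3 VTA arrays lay below the VTA saline mean of 0.62, at 0.34, -0.45 and 0.43. The VTA response minus the SN response was -0.67 ± 0.71 (SE; limma adjusted p = 1), which did not pass. The VTA saline mean rests on array 3 at 1.85, and without that array the difference was -0.056 and the VTA difference alone was 0.099, the same sign as in SN (0.16).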

How the results depend on the processing

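None of the 9 genes passed under any alternative that was run. Leaving out some single array turned the sign of 38 of the 63 differences (9 genes, 7 comparisons), among them 3 of 9 after 2 days and 7 of 9 after 10 days in SN. Of the differences larger than their SE, those that turned without the 2 arrays of widest spread were Nts (-0.052) and Vip (-0.058) after 2 days in SN, Vip (-0.20) and Sst (-0.022) after 10 days in SN, and the Vip difference of responses at 2 days (0.45). Leaving out each array in turn gave -0.052 to 1.73 for Nts and -0.058 to 1.80 for Vip after 2 days in SN, -0.20 to 1.66 for Vip and -0.022 to 0.66 for Sst after 10 days in SN, and -1.11 to 0.099 for Gal after 2 days in VTA. Ptprn2 after 10 days in VTA was -0.00055 by 1 of its 2 probe sets alone.

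The number of all genes that passed moved as follows. With probe sets tested singly it was 7 after 10 days in SN, 5 after 2 days in VTA and 15 among the 6 groups. Fitting only the groups compared gave 0 after 10 days in SN and 0 after 2 and 0 after 10 days in VTA. Repeated quantile normalisation gave 6 after 2 and 0 after 10 days in SN, and 1 after 2 and 0 after 10 days in VTA. Array weights gave 20 after 2 and 3 after 10 days in SN, 0 after 10 days in VTA and 22 among the groups. Without the 2 arrays of widest spread it was 1 after 2 days in SN, 1 after 2 and 0 after 10 days in VTA, and 1 for the difference of responses at 10 days. Leaving out each array in turn gave 0 to 3 and 0 to 1 after 2 and 10 days in SN, 0 to 4 and 0 to 3 in VTA, and 3 to 13 among the groups. The cause was not tested.

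Same-numbered arrays deviated together in 19 of 45 pairs (correlation over 0.1; median 0.081), against 10 of 90 pairs of different numbers (median -0.041), so same-numbered arrays were alike more often. The arrays were not treated as paired, because no label gives them a shared source and not every pair was over 0.1. With the replicate number as a block, the count of genes was 0 after 10 days in SN, 4 after 2 days and 0 after 10 days in VTA, and none of the 9 genes passed.

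The correlation of Tac1 with Penk stayed between 0.76 and 0.87, that of the dopamine markers with Tac1 between -0.89 and -0.82 and with Penk between -0.88 and -0.73, and that of the glutamate markers with Tac1 between 0.67 and 0.83 when single arrays were left out, and all passed. Repeated quantile normalisation ended the calls of Cck with Npy (0.56, adjusted p = 0.073 by permutation) and of microglia markers with Pdyn (0.63, adjusted p = 0.12 by permutation).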
